A study of Mus musculus with 45 samples.

Results

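IL-4-polarized (M2) bone marrow-derived macrophages of *Famin* p.254V mice were compared with those of *Famin* p.254I mice by RNA sequencing. The comparison took the 5 p.254V and the 5 p.254I M2 libraries, which are 10 of the 45 libraries of the series, and the members were chosen from the genotype and polarization labels alone. The other libraries are the unstimulated (M0) and the IFN-γ and LPS-stimulated (M1) cultures of both genotypes and all cultures of *Famin* p.284R mice. All mice were C57BL/6N and 6 to 10 weeks old. Marrow cells were cultured for 6 days, with M-CSF at 100 ng/mL per the study's methods, and M2 cells then received IL-4 at 20 ng/mL for 24 h. Per the same methods, the mice were littermates of heterozygous breeding, matched for age and gender. All cells of an animal carried its *Famin* form. A difference can thus arise in the macrophage, in its marrow precursors or in the animal before the marrow was taken. These origins cannot be told apart.

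FAMIN, encoded by *Lacc1*, is an enzyme of purine metabolism in macrophages that cleaves and deaminates purine nucleosides and so supplies bases for salvage by other enzymes. The p.254V form is the variant linked to Crohn's disease and leprosy, p.254I is the non-risk form, and p.284R causes a monogenic inflammatory disease. IL-4 acts through its receptor, Janus kinases and STAT6, and sets macrophages to a program with arginase 1, chitinase-like proteins, lectins and fatty acid oxidation. The question here was which transcripts differ between carriers of the common risk and non-risk forms once the cells are in that program.

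*Lacc1* lies on chromosome 14 from 77024200 to 77036904 on the minus strand (GRCm38, the assembly also called mm10) and overlaps *Ccdc122* on the other strand. Codon 254 of its longest coding transcript is in exon 5 of 8, within the coding sequence, at chr14:77033331-77033333. The reference sequence around it is printed, in coding orientation with that codon in capitals. It is the position that the genotype names give, counted here from the first codon of the mouse transcript. The reference codon, GTG, encodes valine, and the study states that mice of this strain background express the p.254V form. At this residue p.254V thus matches the mouse reference and p.254I differs from it. A difference of p.254V from p.254I is therefore not a departure from the mouse reference residue.

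Lacc1 codon 254, chr14:77033319-77033345, minus strand: cacgccagtgaaGTGtgggttatgggg

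Counts per gene do not show which codon a library carries, so the genotype labels were not checked from these data. *Lacc1* itself was measured at 169, 169, 159, 167 and 165 CPM (the count relative to the TMM-normalised library size, the standard depth-scaled unit of edgeR) in p.254I replicates 1 to 5 and at 159, 168, 161, 183 and 173 CPM in p.254V. The ranges overlap, and the mean was 166 ± 3.97 CPM (SD, n = 5) against 169 ± 9.65 CPM (SD, n = 5), a log2 fold change of 0.03 with a standard error of 0.23.

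Total counts per library were between 19757185 and 32238351 in the 10 libraries. The M2 label held in all of them. *Arg1*, arginase 1, ranged from 705 to 1421 CPM against at most 0.719 CPM in the M0 libraries of both genotypes, and *Retnla*, the secreted protein RELMα, ranged from 1287 to 9295 CPM against at most 0.577 CPM in M0. The 4 Y-linked genes *Ddx3y*, *Uty*, *Kdm5d* and *Eif2s3y* had 0 counts in the 10 libraries. Of the markers of other blood and stromal cells, 8 neutrophil genes summed to 22.1 to 75.3 CPM in p.254I and 34.9 to 62.6 CPM in p.254V, and 6 fibroblast genes to 11.04 to 29.2 and 9.89 to 27.9 CPM. T and NK cell, B cell, mast cell and basophil, erythroid and megakaryocyte lists each summed to at most 4.51 CPM, with 4 erythroid genes (*Hba-a1*, *Hba-a2*, *Hbb-bs*, *Alas2*) at 0 counts in all 10 libraries. The dendritic cell list summed to 3.90 to 12.9 CPM in p.254I and 4.83 to 10.9 CPM in p.254V, and 4 osteoclast genes to 175 to 587 and 312 to 399 CPM. No gene of these lists had an unadjusted p under 0.05, and their part in the results was not tested beyond that. In bulk RNA, fewer cells of a type and less RNA per cell cannot be told apart.

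A single library stood apart. The p.254I replicate 4 was higher by at least 1 log2 unit than each of the other 4 p.254I M2 libraries in 38 genes and lower in 33, against at most 8 and 3 genes in any of the other 9 libraries within its own group. Gene list medians and the values of genes that rest on it are given also without it where it moved them most.

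No gene passed edgeR's quasi-likelihood test between p.254V and p.254I in M2. Of 12905 genes tested, 0 (0%) had a Benjamini-Hochberg adjusted p under 0.05. At an unadjusted p under 0.05 there were 329 (2.55%), of which 146 (1.13%) were higher in p.254V and 183 (1.42%) lower. limma-voom on the same libraries called 0 genes and had 343 at that unadjusted threshold, and the DESeq2 Wald test called 2, *Mid1* and *Slc9a9*. Since equal replicate numbers paired the libraries, the number was also fitted as a block within each polarization. That fit called 0 genes and left 1215 (9.41%) at an unadjusted p under 0.05. The genes named below are therefore described by their levels, and none of them passed the adjusted threshold unless a test is named that called it.

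**Figure D1:**
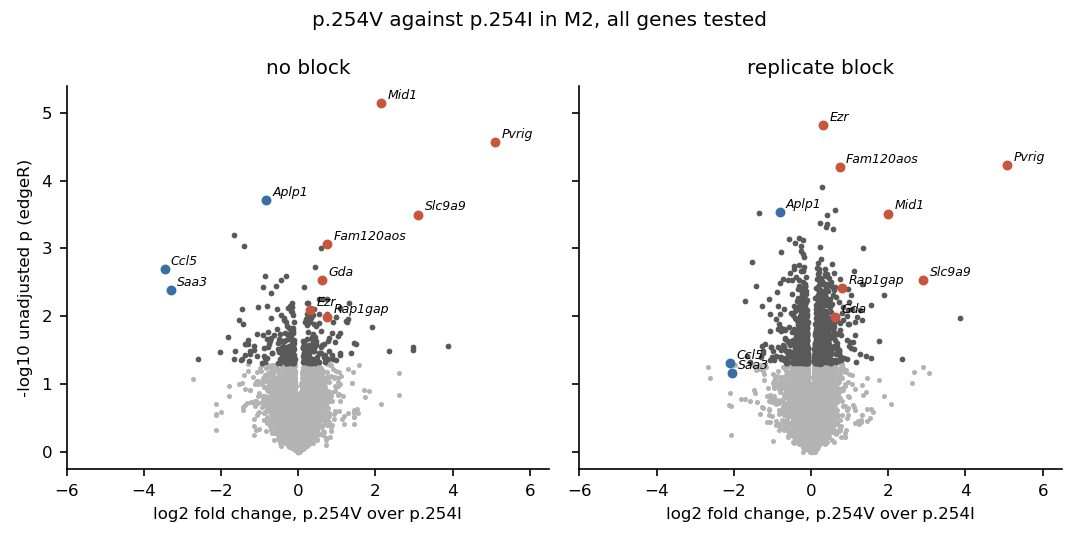
Each point is one of the 12905 genes tested, with the log2 fold change of p.254V over p.254I in M2 on the x axis and −log10 of the unadjusted edgeR p on the y axis, without (left) and with (right) the replicate number as a block. Dark points have an unadjusted p under 0.05 (329 left, 1215 right), and *Mid1* on the left and *Ezr* on the right stand highest, with adjusted p-values of 0.0933 and 0.195.

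*Mid1* had the smallest p. It encodes a microtubule-associated E3 ubiquitin ligase that binds the regulatory α4 subunit of the phosphatase PP2A, and lies on chromosome X from 169685199 to 170005736, plus strand. It was measured at 1.07, 1.197, 1.79, 1.70 and 0.895 CPM in p.254I replicates 1 to 5 and at 4.81, 12.9, 1.93, 1.99 and 8.56 CPM in p.254V. The groups do not overlap, but p.254V replicates 3 and 4 lie just above the highest p.254I library and only replicates 1, 2 and 5 lie well above it. The log2 fold change was 2.16 with a standard error of 0.42 (edgeR, adjusted p = 0.0933). The difference of mean log2(CPM + 1) was 1.34, with p = 0.00794 in a two-sided exact permutation test over the libraries, the smallest that 5 against 5 allows. The study had already named *Mid1*, *Slc9a9* and *Rap1gap* for this genotype comparison, from libraries of this series. The exact p-values given here for these genes, by permutation or sign-flip, thus follow a selection on the same data. They take no account of that selection and are not independent evidence of a difference. With the libraries paired by number, *Mid1* was higher in p.254V in 5 of 5 pairs, the exact sign-flip p was 0.0625, the smallest that 5 pairs allow, and edgeR's adjusted p with the block was 0.454. DESeq2 called it (adjusted p = 2.5e-04), and edgeR called it without p.254V replicate 3 (adjusted p = 0.00885) or without p.254V replicate 4 (adjusted p = 0.0106). In the other 16 settings tried edgeR and limma-voom did not call it, with adjusted p-values from 0.0815 to 0.9999, the latter without p.254V replicate 2. Among these were 0.995 in a fit of the 10 libraries alone, 0.996 in the 15 M2 libraries and 0.998 with limma-voom.

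Reads of *Mid1* can be split with a near-identical copy. *Mid1-ps1*, annotated on the Y chromosome from 90753057 to 90763485, was at 0, 0.193, 0.152, 0 and 0 CPM in p.254I and at 0.236, 0.603, 0.696, 0.192 and 0.0760 CPM in p.254V (log2 fold change 2.35, SE 1.06, unadjusted p = 0.0326). Its groups overlap, and its values do not follow the order of *Mid1* among the p.254V libraries. Both values are uncertain to the extent that reads matching both copies were assigned to either. The Y-linked genes *Ddx3y*, *Uty*, *Kdm5d* and *Eif2s3y* had 0 counts in the same 10 libraries, so *Mid1-ps1* was counted where these were not. Its values are therefore not read as those of a separate Y-linked gene, and the origin of its reads was not tested. *Mid1* also overlaps 5 annotated genes on the opposite strand and *Slc9a9* overlaps 2, and whether the counting used strand is not given in the sources used here. Within 500 kb of *Mid1*, 5 other genes were tested and none had an unadjusted p under 0.05, with log2 fold changes from -0.09 to 0.63.

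*Slc9a9* encodes NHE9, a sodium-proton exchanger of endosomes, and lies on chromosome 9 from 94669909 to 95230445, plus strand. Its M2 levels were 2.25, 1.81, 3.35, 4.24 and 2.84 CPM in p.254I and 42.0, 50.3, 29.6, 2.41 and 2.43 CPM in p.254V. Replicates 1, 2 and 3 of p.254V are high and replicates 4 and 5 lie inside the p.254I range, so the groups overlap. The p.254V libraries with these 3 numbers were also high in the other cultures, with 231, 308 and 127 CPM in M0 and 53.5, 69.8 and 35.1 CPM in M1, while replicates 4 and 5 had 12.02 and 10.9 CPM in M0 and 5.25 and 6.00 CPM in M1. In M2 the log2 fold change was 3.11 (SE 0.79, edgeR unadjusted p = 3.2e-04, adjusted p = 0.999), and the exact permutation p of the difference of 1.99 in mean log2(CPM + 1) was 0.119. That p was 0.0317 without p.254V replicate 4 and without p.254V replicate 5. DESeq2 called the gene (adjusted p = 0.0206). The p.254V replicate 5 was thus high for *Mid1* and low for *Slc9a9*, and replicate 3 the reverse. Of 4 genes tested within 500 kb of *Slc9a9* none had an unadjusted p under 0.05.

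**Figure D2:**
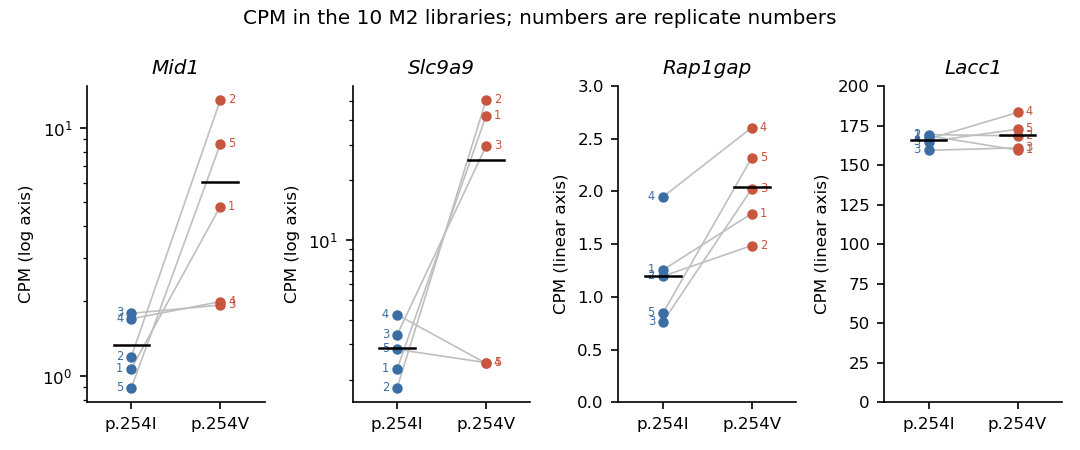
CPM of *Mid1*, *Slc9a9*, *Rap1gap* and *Lacc1* in the 5 p.254I (blue) and 5 p.254V (red) M2 libraries, with log axes for the first pair and linear axes from 0 for the others. Points are libraries, numbers are replicate numbers, grey lines join equal numbers and black bars are means. *Slc9a9* is above 29 CPM in 3 p.254V libraries and under 5 CPM in all others, and *Lacc1* lies between 159 and 183 CPM throughout.

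*Rap1gap*, which encodes a GTPase-activating protein that turns off the small GTPase Rap1, was low in all libraries. It was at 1.26, 1.197, 0.761, 1.95 and 0.846 CPM in p.254I and 1.79, 1.49, 2.03, 2.61 and 2.32 CPM in p.254V (log2 fold change 0.75, SE 0.28, unadjusted p = 0.0103). It was higher in p.254V in 5 of 5 numbered pairs, and p.254I replicate 4 is the one p.254I library above the lowest p.254V libraries. Without that library the log2 fold change was 1.00 (unadjusted p = 0.00147). The exact permutation p over all 10 libraries was 0.0238, and the exact sign-flip p over pairs 0.0625. Of 14 Rap1 genes and regulators tested, *Rap1gap* was the only member with an unadjusted p under 0.05, beside 2.55% of all genes. *Rap1b*, the most abundant of them, had 469 and 472 CPM, and the median log2 fold change of the list was 0.01, beside -0.01 over all genes tested.

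A few other genes had p-values among the smallest. *Pvrig*, which encodes an inhibitory receptor of lymphocytes, had 0 counts in each of the 5 p.254I M2 libraries and 2, 1, 11, 4 and 2 counts in p.254V replicates 1 to 5. Set against an assumed 3 counts over the whole p.254I group, the level in p.254V was 6.75-fold higher, on 20 counts in all, 11 of them in a single library. This ratio takes no account of the spread between libraries and is not a lower bound. The adjusted p of edgeR was 0.171, and 0.99996 without p.254V replicate 3. The M0 libraries held 0.132 to 0.406 CPM in p.254I and 0.166 to 0.586 CPM in p.254V, so the gene was counted in p.254I cells of that culture. *Aplp1*, an amyloid precursor-like protein, was at 1.70, 1.70, 0.837, 1.86 and 1.74 CPM in p.254I and 0.848, 1.00, 0.760, 0.920 and 0.875 CPM in p.254V (log2 fold change -0.83, SE 0.20, adjusted p = 0.84). All p.254V libraries and the p.254I replicate 3 lie at or below 1.00 CPM. *Slco4a1*, an organic anion transporter, was at 2.70, 3.47, 1.07, 3.06 and 0.945 CPM in p.254I and at 0.601 to 1.04 CPM in p.254V.

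Groups that did not overlap at all were found for 24 genes (0.186%) higher in p.254V and 19 (0.147%) lower. Among the genes with the smallest p in either direction these were *Mid1*, *Pvrig* and *AA986860* on the higher side and *Mrm3* and *Ttc39a* on the lower. *Mrm3*, a mitochondrial ribosomal RNA methyltransferase, was at 7.68, 6.02, 5.67, 6.46 and 5.47 CPM in p.254I and 5.14, 5.02, 4.56, 5.17 and 5.13 CPM in p.254V. *Ttc39a* was at 0.266 to 0.618 CPM against 0.189 to 0.266 CPM, with the groups apart only beyond the third digit, and *AA986860* at 0.433 to 0.665 CPM against 0.791 to 1.17 CPM. The other genes of the 10 with the smallest p in each direction were *Fam120aos* (log2 fold change 0.75), *Zfp951* (0.59), *Nxpe5* (0.43), *Gda* (0.61), *Tom1l2* (0.16) and *Abcg3* (0.53) on the higher side. On the lower side they were *Ccl12* (-1.67), *Slco4a1* (-1.41), *Ccl5* (-3.46), *Saa3* (-3.30), *Cdo1* (-0.87), *Trp53rkb* (-0.45) and *Unc13a* (-0.58). Under the block, *Ezr*, the membrane-cytoskeleton linker ezrin, had the smallest p. It was at 31.3, 34.2, 35.5, 29.99 and 42.4 CPM in p.254I and 37.0, 50.7, 43.7, 38.9 and 43.9 CPM in p.254V, higher in 5 of 5 pairs (log2 fold change 0.31, SE 0.06, adjusted p = 0.195 with the block).

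The chemokine *Ccl5* and the acute-phase gene *Saa3* rest on the p.254I replicate 4. *Ccl5* was at 11.6, 15.7, 5.63, 288 and 6.62 CPM in p.254I and at 5.17 to 6.65 CPM in p.254V. *Saa3* was at 2.47, 5.48, 1.94, 134 and 3.83 CPM in p.254I and at 2.44 to 3.82 CPM in p.254V. Without that library their log2 fold changes went from -3.46 and -3.30 to -0.73 (unadjusted p = 0.43) and -0.17 (unadjusted p = 0.874). The p.254I M0 library with the same number was also the highest of its group, with 563 CPM of *Ccl5* and 170 CPM of *Saa3* against at most 11.4 and 7.50 CPM in the other 4 p.254I M0 libraries. *Ccl12*, a monocyte-attracting chemokine, was 7.92 CPM in that library and 0.609 to 2.22 CPM in the others of p.254I, against 0.443 to 1.79 CPM in p.254V, and its log2 fold change was -0.81 without it (unadjusted p = 0.0566).

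All 15 interferon-stimulated genes had a negative log2 fold change, with a median of -0.69. An unadjusted p under 0.05 was found for 3 of them, *Irf7*, *Oasl2* and *Ifi44*, beside 2.55% of all genes. *Irf7*, the transcription factor that amplifies type I interferon, was at 35.2, 67.9, 20.3, 289 and 27.8 CPM in p.254I and 29.9, 39.6, 25.2, 28.8 and 29.7 CPM in p.254V. *Oasl2* was at 78.9, 83.1, 65.3, 246 and 60.1 CPM in p.254I and 60.4, 49.8, 59.2, 70.002 and 72.2 CPM in p.254V. The p.254I replicate 4 is the highest library for both. Without it 0 of the 15 had an unadjusted p under 0.05, all 15 kept a negative sign, and the median was -0.21. Of all genes, 47.3% had a positive sign with all libraries. The 15 signs come from the same libraries and are not independent. Among the p.254I libraries left, replicate 2 was above every p.254V library for *Irf7* and *Oasl2*, and replicates 3 and 5 were not. The 13 tested markers of the IFN-γ and LPS program had a median of -0.61, with *Ccl5* alone under the unadjusted threshold, and -0.36 without the p.254I replicate 4.

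**Figure D3:**
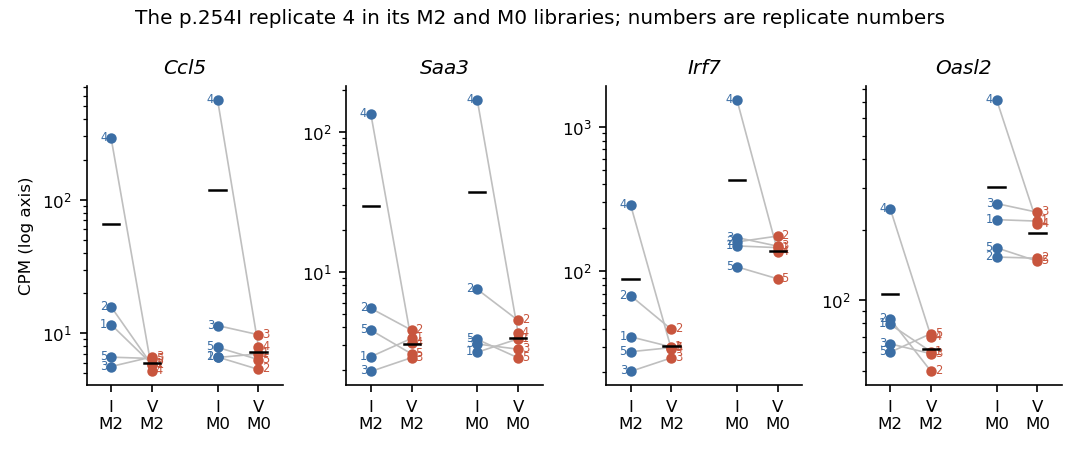
CPM (log axes) of *Ccl5*, *Saa3*, *Irf7* and *Oasl2* in the M2 and M0 libraries of p.254I (I, blue) and p.254V (V, red), with points for libraries, numbers for replicates, lines joining equal numbers and bars for means. The p.254I replicate 4 is the highest point of every panel in both cultures, for example 288 CPM of *Ccl5* in M2 and 563 CPM in M0. Among the other M2 libraries, the p.254I replicate 2 is the highest for *Ccl5* (15.7 CPM) and *Irf7* (67.9 CPM).

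The IL-4 program was present in both genotypes. Of 12905 genes, M2 differed from M0 in 7816 (60.6%) in p.254I and in 7405 (57.4%) in p.254V (edgeR, adjusted p under 0.05). That fit has no block. With the replicate number as a block in the 10 M0 and M2 libraries of each genotype, 7496 and 8056 genes were called. All 20 IL-4 effector genes tested rose in each genotype. Between the genotypes 0 of the 20 had an unadjusted p under 0.05, 15 had a positive and 5 a negative log2 fold change, and the median was 0.19. *Retnla* was at 2990, 3279, 4899, 1287 and 2824 CPM in p.254I and 5892, 9295, 5670, 3130 and 2610 CPM in p.254V, a log2 fold change of 0.80 with a standard error of 0.71 (unadjusted p = 0.264, and 0.0447 with the block). The p.254V replicates 1 to 3 are above all p.254I libraries and replicates 4 and 5 are not. *Chil3*, the chitinase-like protein Ym1, was at 1489, 1058, 1812, 716 and 1470.2 CPM in p.254I and 2349, 2194, 1822, 1165 and 1331 CPM in p.254V (log2 fold change 0.44, SE 0.48). *Arg1* had means of 1064 ± 230 and 1016 ± 274 CPM (SD, n = 5 each).

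Among 12 genes of IL-4 receptor signalling, *Irs2*, an adaptor of the IL-4 and insulin receptors, was the one member under the unadjusted threshold, beside 2.55% of all genes. It was at 20.5, 18.5, 28.2, 21.5 and 24.2 CPM in p.254I and 28.7, 32.8, 33.4, 28.1 and 23.1 CPM in p.254V (log2 fold change 0.37, SE 0.15, unadjusted p = 0.0182). *Stat6*, the main IL-4 transcription factor, averaged 294 and 286 CPM, and *Jak1* 321 and 346 CPM. Of 10 macrophage identity genes tested 0 were under the threshold. Under the block 3 were higher at that threshold, beside 632 of all 12905 genes. Of these 10 genes 4 had a positive sign, and 7 without the p.254I replicate 4. *Csf1r*, the M-CSF receptor, averaged 2234 ± 83.3 CPM in p.254I and 2623 ± 350 CPM in p.254V (SD, n = 5 each), and *Adgre1*, which encodes F4/80, 1841 and 1813 CPM.

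In purine metabolism, 1 of 12 salvage genes and 1 of 11 genes of de novo synthesis had an unadjusted p under 0.05, against 2.55% of all genes. *Gda*, guanine deaminase, which turns guanine into xanthine, was at 139, 115, 237, 123 and 164 CPM in p.254I and 243, 328, 281, 169 and 169 CPM in p.254V. The groups overlap, since p.254I replicate 3 is above the lowest p.254V libraries, but in 5 of 5 numbered pairs p.254V is higher. The log2 fold change was 0.61 (SE 0.19, unadjusted p = 0.0029, and 0.0103 with the block). In the M0 libraries *Gda* was at 22.3 to 26.5 CPM in p.254I and 20.03 to 25.1 CPM in p.254V. The M2 minus M0 difference of the genotype effect was 0.73 (unadjusted p = 0.0124, edgeR without a block). *Gda* was named for its small p in M2, and this contrast uses the same M2 libraries. Its p-values thus follow that selection and are not independent evidence of an effect particular to M2. IL-4 raised *Gda* by 2.69 log2 units in p.254I and 3.41 in p.254V. *Prps1*, which makes the phosphoribosyl donor of purine synthesis, was at 17.5 to 22.1 CPM in p.254I and 25.6, 49.1, 25.9, 18.8 and 20.9 CPM in p.254V, with the replicate 2 far above the rest.

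In the purine nucleotide cycle 0 of 7 genes were under the threshold, with log2 fold changes from -0.15 to 0.03. *Adss*, adenylosuccinate synthase, averaged 111 and 113 CPM. *Xdh*, xanthine dehydrogenase, averaged 301 ± 136 CPM in p.254I and 306 ± 22.9 CPM in p.254V (SD, n = 5 each), where p.254I replicate 4 had 526 CPM. Without that library its log2 fold change was 0.33 (unadjusted p = 0.0579).

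None of 19 V-ATPase subunits, the proton pump of endosomes and lysosomes, was under the threshold (median -0.05), nor any of 13 carbonic anhydrases, bicarbonate transporters and the proton channel (median 0.05). Among *Mid1* and its PP2A partners, the scaffold subunit *Ppp2r1b* was at 42.9 to 54.7 CPM in p.254I and 40.7 to 46.1 CPM in p.254V (log2 fold change -0.13, unadjusted p = 0.038).

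None of 12 fatty acid synthesis, 15 fatty acid oxidation, 18 glycolysis, 21 TCA cycle and malate-aspartate shuttle, 76 respiratory chain, 8 NADPH oxidase, 15 arginine and polyamine, 20 cell cycle and 6 immediate-early genes had an unadjusted p under 0.05. Their median log2 fold changes were 0.00, 0.07, -0.09, 0.02, 0.01, 0.01, -0.07, 0.25 and -0.15 in that order, beside -0.01 over all genes. Several of these rest on the p.254I replicate 4. Without it the medians were 0.12 for the cell cycle, -0.07 for immediate-early genes and -0.13 for glycolysis, and turned negative for the TCA cycle list (-0.01), the respiratory chain (-0.03) and NADPH oxidase (-0.03). The number of respiratory chain genes with a positive sign went from 44 to 23 of 76, and of the TCA cycle list from 13 to 6 of 21. Of the cell cycle genes 19 of 20 had a positive sign, and 17 without that library, beside 47.3% of all genes with all libraries. Under the block 5 of the 20 were higher with an unadjusted p under 0.05, as were 3 of the 15 fatty acid oxidation genes, beside 632 of all 12905 genes. *Mki67*, a marker of cycling cells, averaged 30.7 and 40.3 CPM, while *Pcna*, the replication clamp, averaged 322 and 318 CPM. In fatty acid oxidation 14 of 15 genes had a positive sign, with *Cpt1a*, the carnitine transferase of mitochondrial import, at 149 and 166 CPM. In glycolysis 15 of 18 had a negative sign, with *Pkm*, pyruvate kinase, at 1346 and 1204 CPM. Of 35 genes that the study listed for p.284R, 34 were tested. Of these 4, *Mid1*, *Slc9a9*, *Rap1gap* and *Mid1-ps1*, were higher with an unadjusted p under 0.05, beside 1.13% of all genes. That list was chosen by the study on samples of this series and is not independent evidence of a direction.

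**Figure D4:**
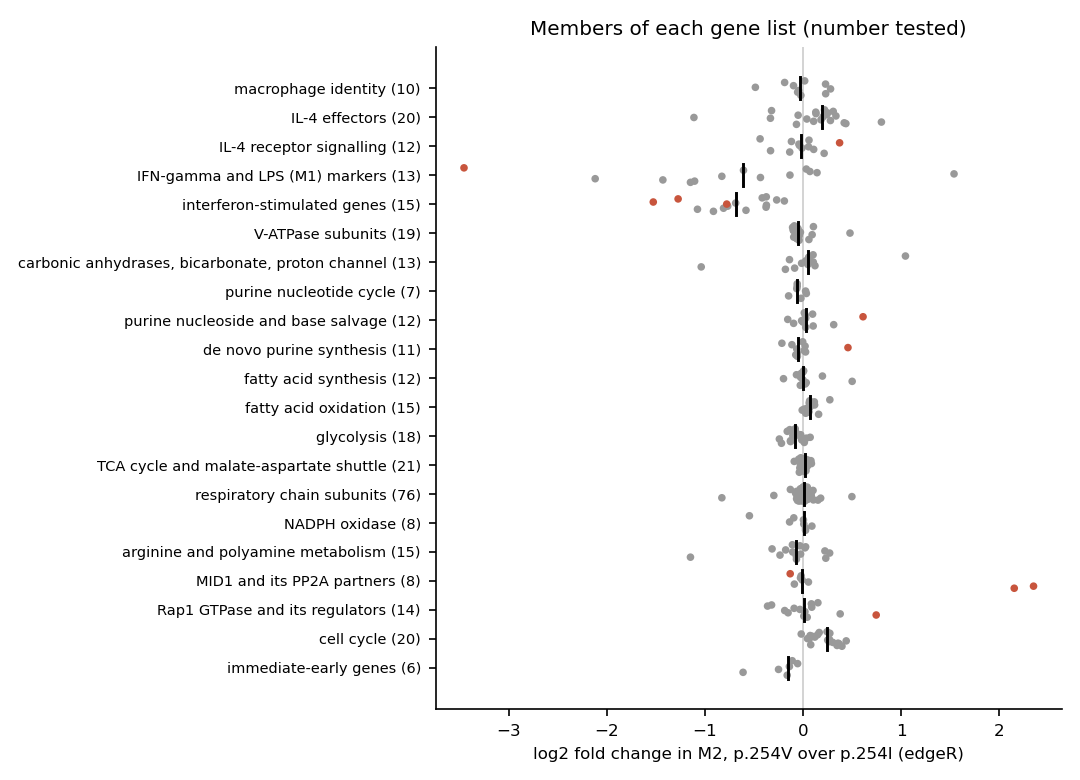
Each point is a member of a gene list, with the number tested in brackets, at its edgeR log2 fold change of p.254V over p.254I in M2. Red points have an unadjusted p under 0.05 and black bars are list medians. Most members lie near 0, *Mid1* and *Mid1-ps1* are the far points on the right among the lists plotted, which do not hold *Slc9a9*, and *Ccl5* is the far point on the left.

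Several transcripts shared with *Slc9a9* the split of p.254V replicates 1 to 3 from the other 7 libraries. The 3 genes whose log2(CPM + 1) was most like *Slc9a9*, by Pearson's correlation among 10959 genes with a mean of at least 1 CPM, were *Bcl3*, *Cfp* and *Ntn4*. They were picked for this likeness, so their sharing the split follows from the choice. The share of all genes with such a split is not given. Since *Slc9a9* falls into 3 high and 7 low libraries, no pooled correlation is given and the levels are given in its place. *Bcl3*, a nuclear IκB protein, was at 10.3, 10.1, 10.7, 9.96 and 9.80 CPM in p.254I and 14.2, 13.8, 13.6, 10.0 and 9.89 CPM in p.254V. *Cfp*, which encodes the complement regulator properdin, was at 594, 629, 646, 613 and 624 CPM in p.254I and 799, 812, 794, 643 and 581 CPM in p.254V. In both genes the p.254V replicates 1, 2 and 3 stand above all the others and replicates 4 and 5 lie with p.254I or next to it. *Ntn4*, a laminin-related netrin, was at 0.579 to 1.07 CPM in p.254I and 1.89, 2.13, 1.55, 0.575 and 0.570 CPM in p.254V. *Mpeg1*, the pore-forming protein perforin-2, which was chosen after its values were seen, was at 1881 to 2170 CPM in p.254I and 2540, 2755, 2566, 2068 and 2156 CPM in p.254V.

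In M0 the p.254V libraries with these numbers stood less clearly apart for these genes. *Bcl3* was at 24.5, 22.8, 26.3, 19.6 and 18.3 CPM in p.254V M0 and 22.5, 22.6, 25.02, 21.7 and 17.2 CPM in p.254I M0, so equal replicate numbers lay close together. The 3 genes most like *Mid1* by the same measure were *Gm4890*, *Rnf115* and *Fkbp7*, with ranges of 0.849 to 1.05, 102 to 106 and 0.997 to 1.39 CPM in p.254I and of 0.886 to 1.71, 104 to 109 and 1.08 to 2.09 CPM in p.254V. In each of these the ranges overlap.

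**Figure D5:**
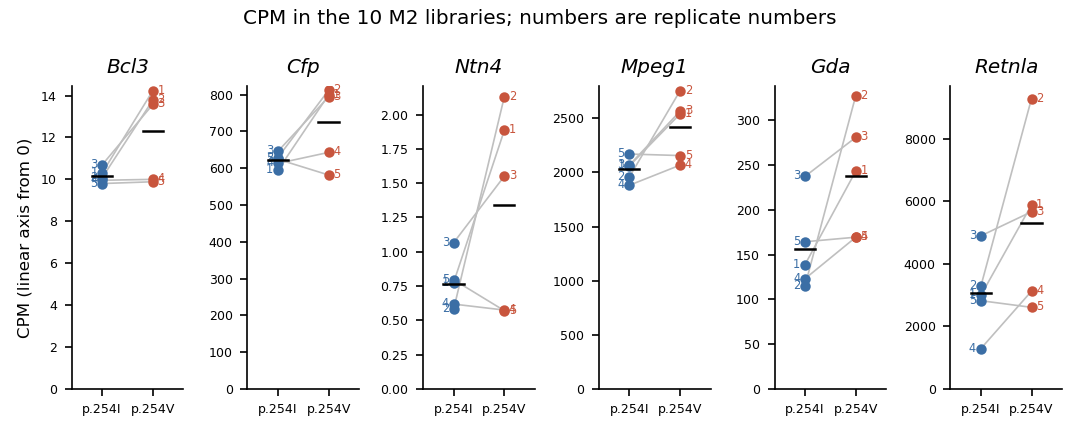
CPM (linear axes from 0) of *Bcl3*, *Cfp*, *Ntn4*, *Mpeg1*, *Gda* and *Retnla* in the 5 p.254I (blue) and 5 p.254V (red) M2 libraries, with replicate numbers, lines joining equal numbers and bars for means. The p.254V replicates 1, 2 and 3 are the 3 highest of the 10 libraries in all 6 panels, for example 14.2, 13.8 and 13.6 CPM of *Bcl3* against at most 10.7 CPM elsewhere. *Bcl3*, *Cfp* and *Ntn4* were picked for their likeness to *Slc9a9*, and *Mpeg1*, *Gda* and *Retnla* were plotted with their values known. The order shared by the 6 panels thus follows from the choice of genes.

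Whether the genotype difference was particular to M2 was asked by testing it against the difference in M0 and in M1. Of 12905 genes, 0 (0%) passed the adjusted threshold for M2 minus M0 and 0 (0%) for M2 minus M1. At an unadjusted p under 0.05 there were 167 (1.29%) and 156 (1.21%), and DESeq2 and limma-voom also called 0 in both. These fits treat the libraries as independent, though those of one genotype and number were taken as cultures of one mouse. With the mouse as a block in the 30 libraries of both genotypes, 0 genes were called in either contrast. There were then 330 and 315 of 12731 genes at an unadjusted p under 0.05. The p-values of single genes given here are from the fit without that block. They follow the choice of these genes on the same libraries and are not independent evidence. *Mid1* had log2 fold changes of 2.16 in M2, 1.23 in M0 and 0.75 in M1 (unadjusted p = 0.119 for M2 minus M0 and 0.019 for M2 minus M1). *Slc9a9* had 3.11, 3.14 and 2.52 (unadjusted p = 0.981 and 0.578). In p.254I, IL-4 lowered *Slc9a9* by a log2 fold change of -2.42 (edgeR, adjusted p = 0.00793), and in p.254V by -2.44 (adjusted p = 0.00251), and the p.254V libraries numbered 1 to 3 were the high ones in both cultures.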

How the data were processed

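Libraries were made from poly(A) RNA with a stranded kit and sequenced as single 50-base reads. Per the labels and the study's methods, the authors trimmed reads with Trim Galore and aligned them to mm10 with HISAT2, while the series' design text names Cutadapt and STAR. The counting tool and annotation are not given in the sources used here. The deposited values are raw counts per gene, and no deposited fold change was used.

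Of 29307 genes, 12905 passed edgeR's low-count filter. Counts of all 45 libraries (9 groups of 5) were scaled by TMM and fitted with edgeR's quasi-likelihood test (edgeR 4.0.16, R 4.3.3), with Benjamini-Hochberg adjustment over all genes tested and a threshold of 0.05. limma 3.58.1 and DESeq2 1.42.0 were alternatives. Exact permutation tests were two-sided, on log2(CPM + 1), over 252 splits. Gene positions are from GENCODE M21, which matched 29146 gene IDs. Replicate numbers are from the labels. The fit was also run on simulated counts.

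Replicate numbers paired the libraries. Deviations from the group means correlated at 0.281 to 0.647 in the 5 same-number pairs and at -0.509 to 0.314 in the 20 others, over 9522 genes. The labels do not give litter, lane or day.

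Named genes were *Slc9a9*, *Mid1*, *Rap1gap* and *Lacc1*, the 10 smallest p in each direction, list members with an unadjusted p under 0.05 or among the 3 most abundant, genes called in an alternative, and the 3 most like *Slc9a9* and *Mid1*. *Ezr*, *Mpeg1*, *Mki67* and others outside this rule were chosen after their values were seen. The members and lists were chosen with earlier results of these data known. Some genes of the lists are not reported here.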

Additional observations from a re-analysis of the deposited data

Results flagged for a closer look

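A library was set apart where its gap to the nearest of the 5 in its group, divided by the group's range, passed Dixon's 95% critical value of 0.71. Of 96 groups checked 10 passed. Some of the genes were chosen by small p-values or after their values were seen, so this count cannot be set against a chance rate. In p.254I M2, replicate 4 was highest for *Saa3* (0.973), *Ccl5* (0.964), *Oasl2* (0.876), *Irf7* (0.823) and *Ccl12* (0.780), and lowest for *Nxpe5* (0.735). Replicate 3 of p.254I was lowest for *Aplp1* (0.846). In p.254V M2, replicate 2 was highest for *Prps1* (0.764), and replicate 3 was lowest for *Mrm3* (0.758) and highest on the second principal component (0.733).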

How the results depend on the processing

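Of 150 alternative values of the counts and of the exact tests, 137 kept their direction and their side of the threshold or stayed within 1.5 times. Of 1939 alternative values of 103 named genes, 1930 were counted as unchanged, but there a change of sign in an uncalled gene did not count as a change. None of these genes was called in the main fit, so this number says little about their direction or size. Over the settings, log2 fold changes ran from -0.12 to 0.20 for *Adgre1*, from -0.11 to 0.33 for *Xdh* and from -3.58 to -0.17 for *Saa3*. Against 0 genes called by edgeR between the genotypes in M2, DESeq2 called 2, and leaving out 1 library called 0 to 1, the 1 being *Mid1* without p.254V replicate 3 or 4. Against 329 genes at an unadjusted p under 0.05, there were 568 with no low-count filter, 1215 with the replicate block over 45 libraries, 1296 with the replicate block in the 10 libraries alone, and 192 (without p.254V replicate 3) to 674 (without p.254I replicate 3) when 1 library was left out. With pairs by replicate number, the differences of 1.34 for *Mid1* and 0.481 for *Rap1gap* had an exact sign-flip p of 0.0625, which cannot be lower with 5 pairs. For *Slc9a9*, leaving out 1 library gave 1.55 to 2.53, with an exact p of 0.0317 without p.254V replicate 4 or 5. The *Lacc1* difference was -0.0036 (without p.254V replicate 4) to 0.0462. The cause of these changes was not tested. At these depths, genes under about 1 CPM, such as *Pvrig*, rest on few counts.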
